A study of Mus musculus with 8 samples.

Results

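The genes described here are 10 transcripts of neutrophils and their precursors, measured in whole ovaries of mice on postnatal day 4 (PND4). They are *S100a8*, *S100a9*, *Retnlg*, *Mpo*, *Pglyrp1*, *Csf3r* and the stefin A genes *Stfa1*, *Stfa2*, *Stfa2l1* and *Stfa3*. They were listed by name and found by NCBI gene ID in a count table of 24823 genes, and all 10 were in it. They were chosen on the comparison described below, with its result known, so their differences between genotypes are given as values with no test. The cKO group consisted of 4 libraries from mice with floxed *Nr5a2* alleles (*Nr5a2* f/f) and 1 copy of an *Amhr2*-cre transgene (Tg/+), designed to delete the gene of the nuclear receptor NR5A2 (LRH-1). The CON group consisted of 4 libraries from mice with the same floxed alleles and no Cre, so both groups carry the floxed *Nr5a2*. Cre expression follows *Amhr2*, which in the ovary is active in granulosa cells and the surface epithelium, so the model targets these cells and not the whole organ. Columns of the table name the genotype alone, so the libraries are numbered here by column, as cKO 1 to cKO 4 and CON 1 to CON 4. The study counts 4 animals per genotype, taken here as 1 animal per library.

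Neutrophils are short-lived white blood cells that are made in the bone marrow and, before and shortly after birth, in the liver and spleen. Their granules form in a fixed order as the cell matures: azurophil granules with myeloperoxidase and elastase first, then specific granules with lactoferrin and cathelicidin, and last gelatinase granules. The calgranulins S100A8 and S100A9 form the calprotectin dimer that fills the cytosol of the mature cell, and the receptor of granulocyte colony-stimulating factor, CSF3R, drives production and survival of the lineage. Stefins are inhibitors of cysteine cathepsins. In the mouse the stefin A family has expanded into a cluster of closely related genes, several of them expressed in neutrophils.

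Assigned reads per library ranged from 14649243 to 29066847. *Nr5a2*, the targeted gene, was higher in the libraries labelled cKO, with 31.0, 23.1, 27.9 and 27.8 CPM (counts of a gene scaled to library size and TMM factor), against 18.4, 16.3, 15.0 and 12.2 CPM in those labelled CON. The difference was 0.82 on the log2 scale, cKO over CON (SE 0.13, adjusted p = 0.0128 in edgeR), and because reads of exons outside the deleted ones are counted, the gene-level value does not check the deletion. Ovarian markers were present in every library. The summed level of 7 oocyte markers was 764 to 1094 CPM in cKO and 516 to 792 CPM in CON, and that of 7 granulosa markers, *Nr5a2* among them, was 649 to 772 CPM in cKO and 583 to 708 CPM in CON. In whole-organ RNA, fewer cells of a type and less RNA per cell cannot be told apart.

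The 10 genes together had 208, 166, 174 and 101 counts in cKO 1 to cKO 4, against 2217, 340, 2579 and 286 counts in CON 1 to CON 4. CON 1 and CON 3 held 79.0% of all 6071 counts of these genes. Scaled to depth, the sums were 8.35, 10.3, 7.51 and 6.98 CPM in cKO, against 116, 12.0, 151 and 16.4 CPM in CON. The 4 cKO sums thus lay below all 4 CON sums, CON 2 and CON 4 stood close to the cKO libraries, and CON 1 and CON 3 stood far from all others. Not every gene followed the sum: most were high in CON 1 and CON 3, but *Mpo* was high in CON 3 and CON 4, and *Stfa3* in CON 3.

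**Figure D1:**
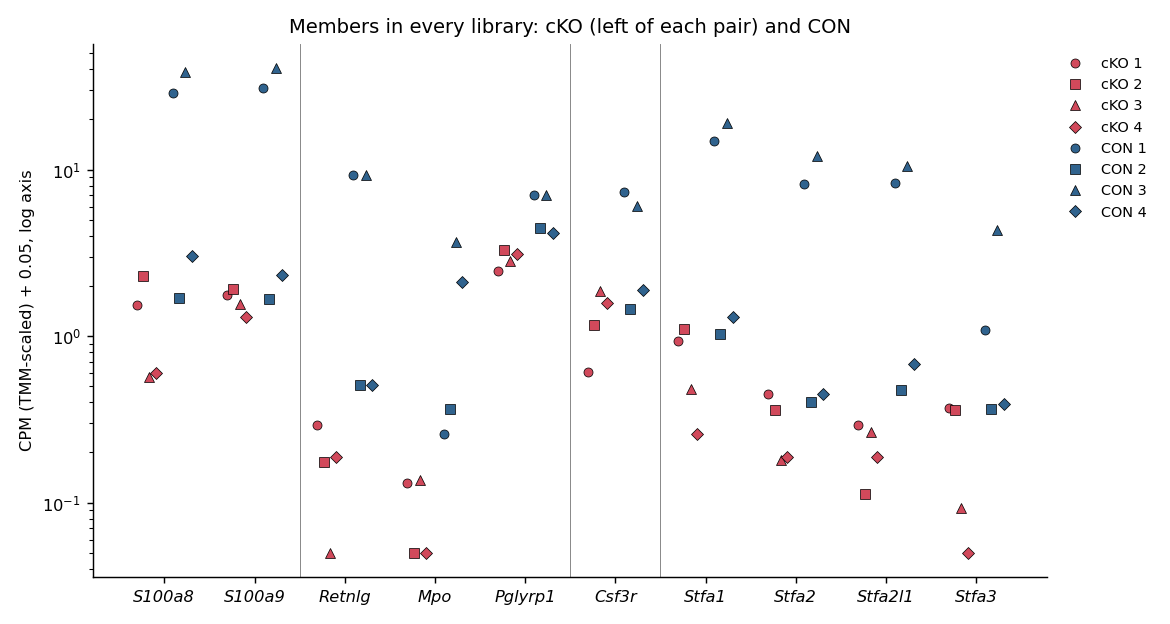
Level of each of the 10 genes in each library, in CPM plus 0.05 on a log axis, with cKO (red) left of CON (blue) for each gene and 1 symbol per library. CON 1 and CON 3 lie apart for the calgranulins, *Retnlg*, *Stfa1*, *Stfa2*, *Stfa2l1* and *Csf3r*, with *S100a9* at 30.9 and 40.6 CPM in these libraries, while *Mpo* is highest in CON 3 and CON 4.

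The calgranulins had the highest levels per kilobase of exon in both groups. *S100a8*, gene ID 20201 on chromosome 3 (90669071 to 90670034, GRCm38), had 1.49, 2.24, 0.518 and 0.553 CPM in cKO 1 to cKO 4, against 28.9, 1.65, 38.7 and 2.98 CPM in CON 1 to CON 4. *S100a9*, gene ID 20202 on the same chromosome (90692630 to 90695721), had 1.73, 1.87, 1.51 and 1.24 CPM in cKO, against 30.9, 1.62, 40.6 and 2.29 CPM in CON. The groups overlapped in both genes, since cKO 2 exceeded CON 2, as did cKO 1 for *S100a9*. CON 1 and CON 3 held 87.8% of the summed *S100a8* level and 87.5% of the *S100a9* level. The mean of *S100a8* was 1.20 ± 0.83 CPM in cKO and 18.0 ± 18.6 CPM in CON (SD, n = 4 each), so the spread within CON was as large as its mean. As log2 fold changes, cKO over CON throughout, the differences were -3.90 (SE 1.27) for *S100a8* and -3.54 (SE 1.23) for *S100a9*. The products of both genes act as a dimer, and the ratio of *S100a8* to *S100a9* CPM was 0.860, 1.20, 0.343 and 0.444 in cKO 1 to cKO 4, against 0.934, 1.02, 0.953 and 1.30 in CON 1 to CON 4. It lay between 0.934 and 1.30 in the CON libraries, at both their high and their low levels. In cKO 1 and cKO 2 it was no farther from 1 than in CON 4. The ratio was lowest in cKO 3 and cKO 4, where *S100a8* rested on 12 and 8 counts.

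The 250 bases before the start sites of the calgranulin genes and of *Mpo* are shown because these genes follow different patterns across the libraries, and because C/EBP and PU.1 are the factors best known for granulocyte and myeloid transcription. The sequences are those of RefSeq for GRCm38.p6, and capitals mark the letters TTGCNNAA (C/EBP), GAGGAAGT (PU.1) or GGAAGT (the PU.1 core, which every GAGGAAGT contains) on either strand. They lie at chr3:90668821-90669070 (plus strand), chr3:90695722-90695971 (minus strand) and chr11:87793534-87793783 (plus strand).
*S100a8*: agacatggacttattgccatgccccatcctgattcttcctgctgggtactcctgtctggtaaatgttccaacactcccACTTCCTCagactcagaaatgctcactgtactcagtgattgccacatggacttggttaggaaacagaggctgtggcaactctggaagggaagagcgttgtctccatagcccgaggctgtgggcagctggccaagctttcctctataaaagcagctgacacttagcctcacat
*S100a9*: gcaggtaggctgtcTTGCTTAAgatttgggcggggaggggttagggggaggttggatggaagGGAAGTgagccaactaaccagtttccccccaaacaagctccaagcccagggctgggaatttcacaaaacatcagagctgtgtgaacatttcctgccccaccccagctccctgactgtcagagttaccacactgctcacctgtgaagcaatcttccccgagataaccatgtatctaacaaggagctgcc
*Mpo*: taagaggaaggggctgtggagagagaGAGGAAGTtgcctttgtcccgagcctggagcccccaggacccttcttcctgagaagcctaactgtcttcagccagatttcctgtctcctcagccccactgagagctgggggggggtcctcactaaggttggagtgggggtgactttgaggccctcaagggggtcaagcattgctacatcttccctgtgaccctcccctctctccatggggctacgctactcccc

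All 10 genes had a RefSeq promoter window, which runs from 250 bases before the start site to 50 after it. The full palindrome TTGCGCAA was in none of the 10 windows and in 0.183% of all 32851 windows, and TTGCNNAA was in 3 windows (*S100a9*, *Retnlg* and *Stfa1*) and in 10.8% of all windows. GAGGAAGT was in 2 windows (*S100a8* and *Mpo*) and in 3.20% of all, and GGAAGT was in 5 windows (*S100a8*, *S100a9*, *Mpo*, *Stfa2* and *Stfa2l1*) and in 23.8% of all. The windows of *Stfa3*, *Pglyrp1* and *Csf3r* held none of these letters. A match of this kind describes the sequence and is not a measured binding site.

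*Retnlg*, gene ID 245195 on chromosome 16 (48872608 to 48874498), encodes resistin-like gamma, a small secreted protein of mouse neutrophils. It had 0.241, 0.125, 0 and 0.138 CPM in cKO 1 to cKO 4, against 9.20, 0.457, 9.17 and 0.458 CPM in CON 1 to CON 4. The 4 cKO values lay below the 4 CON values, and CON 1 and CON 3 held 92.8% of the summed level, the largest share among the 10 genes. No count was found in cKO 3, which allows up to 3 counts or 0.129 CPM there (counting error only). The log2 fold change was -5.16 (SE 1.45), the lowest of the 10.

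*Mpo* encodes myeloperoxidase, the peroxidase of azurophil granules, which is transcribed in promyelocytes and no longer in mature neutrophils. The gene, ID 17523, lies on chromosome 11 (87793784 to 87804412). Its counts were 2, 0, 2 and 0 in cKO 1 to cKO 4, against 4, 9, 62 and 36 in CON 1 to CON 4, or 0.0803, 0, 0.0863 and 0 CPM in cKO, against 0.209, 0.317, 3.62 and 2.06 CPM in CON. All cKO values were below all CON values, with the high values in CON 3 and CON 4 and a low value in CON 1, where the calgranulins were high. Summed over libraries, 4 counts in cKO and 111 in CON gave a ratio per assigned read of 0.0387 (exact 95% interval 0.0104 to 0.102, counting error only). The log2 fold change was -4.76 (SE 1.19) with all libraries and -4.38 (SE 0.97) without CON 1 and CON 3.

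*Pglyrp1* encodes a peptidoglycan recognition protein that neutrophils store in granules and that binds bacterial cell walls. The gene, ID 21946, lies on chromosome 7 (18884690 to 18890438). It had 2.41, 3.24, 2.76 and 3.04 CPM in cKO 1 to cKO 4, against 7.001, 4.43, 7.01 and 4.12 CPM in CON 1 to CON 4. The groups did not overlap, the spread within each was small, and CON 1 and CON 3 again held the higher CON values, but with only 41.2% of the summed level. The means were 2.86 ± 0.36 CPM in cKO and 5.64 ± 1.58 CPM in CON (SD, n = 4 each). The log2 fold change was -0.98 (SE 0.22), the closest to 0 of the 10.

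*Csf3r*, ID 12986 on chromosome 4 (126023441 to 126044975), encodes the receptor of granulocyte colony-stimulating factor. It had 0.562, 1.12, 1.81 and 1.52 CPM in cKO 1 to cKO 4, against 7.26, 1.41, 5.96 and 1.83 CPM in CON 1 to CON 4. CON 1 and CON 3 were high, and the values of cKO 3 and cKO 4 exceeded CON 2, so that the groups overlapped. The log2 fold change was -1.71 (SE 0.60). The gene of its ligand, *Csf3*, had at most 0.883 CPM in cKO and at most 0.575 CPM in CON.

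The 4 stefin A genes lie within a cluster on chromosome 16, *Stfa2l1* (ID 268885) at 36156811 to 36161948, *Stfa1* (ID 20861) at 36277148 to 36285371, *Stfa2* (ID 20862) at 36403946 to 36408363 and *Stfa3* (ID 20863) at 36450537 to 36455392. Together they had 46, 28, 19 and 7 counts in cKO 1 to cKO 4, against 619, 59, 781 and 46 counts in CON 1 to CON 4. *Stfa1*, the highest of them per kilobase in both groups, had 0.883, 1.06, 0.432 and 0.207 CPM in cKO, against 14.8, 0.985, 19.0 and 1.26 CPM in CON. As for the calgranulins, cKO 2 exceeded CON 2 and the groups overlapped. *Stfa2* had 0.402, 0.311, 0.130 and 0.138 CPM in cKO, against 8.15, 0.352, 12.0 and 0.401 CPM in CON. Here cKO 1 was above CON 2 and CON 4, and the groups overlapped as well. *Stfa2l1* had 0.241, 0.0623, 0.216 and 0.138 CPM in cKO, against 8.31, 0.422, 10.4 and 0.629 CPM in CON, and was the only stefin A gene whose groups did not overlap. *Stfa3* had 0.321, 0.311, 0.0432 and 0 CPM in cKO, against 1.04, 0.317, 4.26 and 0.343 CPM in CON. It differed from the other 3 in that CON 3 stood well above CON 1, with 73 and 20 counts, and cKO 1 was just above CON 2. The log2 fold changes were -3.75 (SE 1.20) for *Stfa1*, -4.32 (SE 1.38) for *Stfa2*, -4.75 (SE 1.31) for *Stfa2l1* and -3.01 (SE 1.08) for *Stfa3*, and without CON 3 that of *Stfa3* was -1.65.

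*Stfa1* gave the largest share of the stefin A counts in every library. It held 47.8%, 60.7%, 52.6% and 42.9% of the counts of the 4 genes in cKO 1 to cKO 4, against 45.9%, 47.5%, 41.6% and 47.8% in CON 1 to CON 4. *Stfa3* held 0% to 17.9% in cKO and 3.23% to 15.3% in CON, with its smallest nonzero share in CON 1. Shares in cKO rest on between 7 and 46 counts.

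The promoters of the 4 stefin A genes are shown because these genes had the same highest libraries and their promoter sequences are partly alike. The 120 bases before each start site are given, at chr16:36277028-36277147 (plus strand), chr16:36408364-36408483 (minus strand), chr16:36156691-36156810 (plus strand) and chr16:36455393-36455512 (minus strand), from RefSeq for GRCm38.p6. Capitals mark stretches of at least 10 bases that all 4 share.
*Stfa1*: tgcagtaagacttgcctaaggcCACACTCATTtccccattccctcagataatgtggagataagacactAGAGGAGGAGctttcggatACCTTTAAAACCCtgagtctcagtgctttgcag
*Stfa2*: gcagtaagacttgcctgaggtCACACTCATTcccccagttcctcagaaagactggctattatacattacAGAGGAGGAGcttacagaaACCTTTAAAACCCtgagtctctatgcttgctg
*Stfa2l1*: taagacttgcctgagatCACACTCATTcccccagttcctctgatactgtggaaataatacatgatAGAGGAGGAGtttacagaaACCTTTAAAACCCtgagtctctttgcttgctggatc
*Stfa3*: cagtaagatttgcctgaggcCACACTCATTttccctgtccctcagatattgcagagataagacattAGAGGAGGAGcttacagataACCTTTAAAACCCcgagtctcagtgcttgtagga
The longest of these stretches, ACCTTTAAAACCC, was present on the same strand in the 250 bases before the start in 8 of the 32851 promoter windows, those of the 4 genes and of *Csta3*, *Cstdc3*, *Cstdc4* and *Gm7260*. Over the 120 bases, identity between pairs of the 4 promoters was between 76.8% and 83.6%.

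The coding sequences of *Stfa2* and *Stfa2l1* are shown because the closest pair sets how well reads can be told apart. The first 300 of 312 coding bases, joined over exons, are given from GENCODE vM21 at chr16:36404039-36408333 (minus strand) and chr16:36156837-36161860 (plus strand), with capitals at each base that differs between the pair.
*Stfa2*: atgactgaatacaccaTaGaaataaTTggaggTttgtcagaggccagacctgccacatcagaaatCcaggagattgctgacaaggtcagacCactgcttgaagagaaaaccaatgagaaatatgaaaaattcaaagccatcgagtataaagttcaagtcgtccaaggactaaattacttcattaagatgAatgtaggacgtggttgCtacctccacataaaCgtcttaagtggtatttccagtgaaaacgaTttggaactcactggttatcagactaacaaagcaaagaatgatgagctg
*Stfa2l1*: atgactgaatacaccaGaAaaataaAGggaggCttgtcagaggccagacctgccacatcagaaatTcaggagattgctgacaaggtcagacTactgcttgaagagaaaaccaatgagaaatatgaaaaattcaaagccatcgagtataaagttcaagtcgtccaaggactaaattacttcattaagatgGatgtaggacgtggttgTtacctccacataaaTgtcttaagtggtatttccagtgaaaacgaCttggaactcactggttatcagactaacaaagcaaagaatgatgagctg
They differ at 11 bases (96.5% identity over 312), and the longest identical run is 97 bases, just short of a read of 100 bases. *Stfa3* is 81.1% identical to *Stfa2* and 81.7% to *Stfa2l1* over the same length. Of all 100-base windows in the protein-coding transcripts of each gene, none of *Stfa2*, *Stfa2l1* or *Stfa3* occurred in a transcript of another gene, while 5.07% of those of *Stfa1* occurred in *Cstdc5*. For *Csf3r* the share was 0.411%, in a processed pseudogene, and for the other 5 genes it was 0. Reads with sequence errors, or shorter ones after trimming, can still be split among these copies, and how reads with several alignments were counted is not given in the sources used here, so the values of single stefin genes carry that uncertainty.

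**Figure D2:**
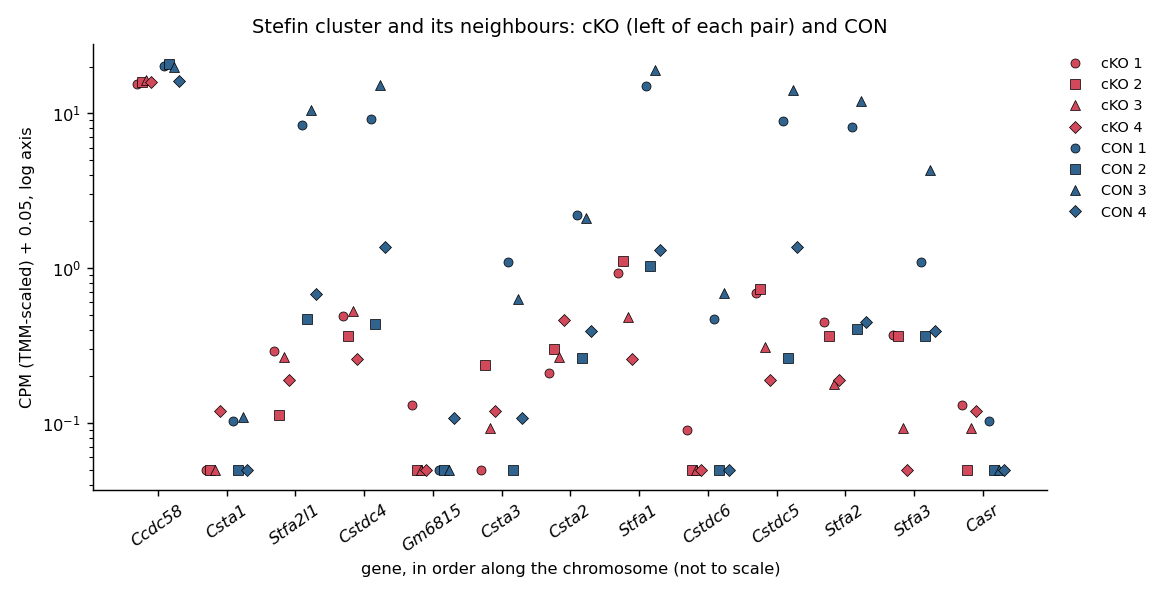
Level of the genes of the stefin cluster on chromosome 16 and the genes on either side, in order along the chromosome, in CPM plus 0.05 on a log axis, with cKO (red) left of CON (blue). CON 1 and CON 3 lie above the other libraries for the 4 stefin A genes, *Cstdc4*, *Cstdc5* and *Csta2*, while the flanking *Ccdc58* has 15.5 to 16.4 CPM in cKO and 16.1 to 20.7 CPM in CON.

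Other genes of the same cluster had the same libraries at the top. *Cstdc4*, a stefin A-like gene between *Stfa2l1* and *Stfa1*, had 11, 5, 11 and 3 counts in cKO, against 174, 11, 259 and 23 counts in CON. *Cstdc5*, which lies next to *Stfa2* among the counted genes, had 16, 11, 6 and 2 counts in cKO, against 169, 6, 242 and 23 counts in CON, and its log2 fold change of -3.76 (SE 1.16) did not pass the test (edgeR adjusted p = 0.0778). *Csta2* had 4, 4, 5 and 6 counts in cKO, against 41, 6, 35 and 6 in CON. The neighbours outside the family did not share the pattern: *Ccdc58* had a log2 fold change of -0.28 (SE 0.09, adjusted p = 0.0767) and *Casr* had 4 counts in cKO and 1 count in CON in all.

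Fitted over all 19867 genes with a count, the 10 log2 fold changes had a median of -3.83 and ranged from -5.16 to -0.98, where the median of all genes with a count was 0.0054. Without CON 1 and CON 3 the median of the 10 was -0.83, and all 10 values stayed below 0. The largest of these values in size was -4.38 for *Mpo*, followed by -1.81 (SE 0.79) for *Retnlg*, -1.55 (SE 0.60) for *Stfa2l1*, -0.94 (SE 0.58) for *S100a8* and -0.89 (SE 0.89) for *Stfa3*. For *S100a9*, *Csf3r* and *Stfa2* the value without these libraries was smaller than its SE, with -0.29 (SE 0.31), -0.37 (SE 0.45) and -0.57 (SE 0.62). That of *Stfa1* was -0.77 (SE 0.55) and that of *Pglyrp1* was -0.59 (SE 0.22). *Mpo* and *Pglyrp1* thus kept more of their fitted difference than the other 8 genes did. What sets CON 1 and CON 3 apart was not tested.

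**Figure D3:**
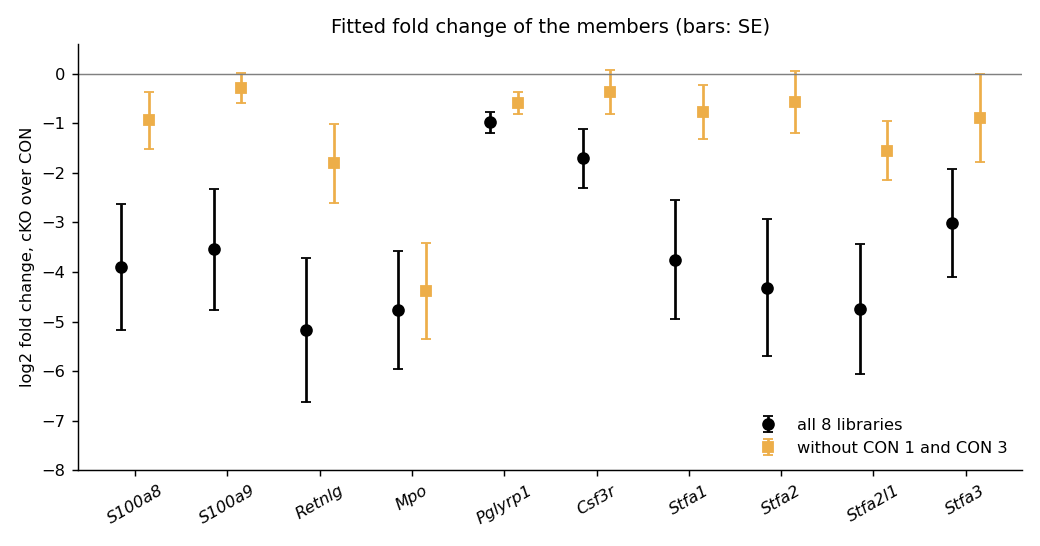
Log2 fold change of cKO over CON of the 10 genes with its SE, fitted with all 8 libraries (black circles) and without CON 1 and CON 3 (yellow squares). Values with all libraries run from -5.16 to -0.98 and values without these libraries from -4.38 to -0.29, with *Mpo* nearly in place.

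Only 5 of the 10 genes (*S100a8*, *S100a9*, *Stfa1*, *Pglyrp1* and *Csf3r*) passed the count filter of the edgeR test across 15257 genes. The other 5 were too low in too many libraries. A gene was called where its adjusted p was under 0.05 and its fold change 1.5 or more. By this rule 1 of the 10, *Pglyrp1*, was called lower in cKO, beside a background in which 0.518% of all genes tested were called lower and 0.891% higher. All cKO values lay below all CON values in 4 of the 10 (*Retnlg*, *Mpo*, *Stfa2l1* and *Pglyrp1*), of which only *Pglyrp1* was among the genes tested, where this held for 9.10% of genes and the reverse for 8.95%. The call of *Pglyrp1* was lost without cKO 1, cKO 2, cKO 3, CON 2, CON 3 or CON 4, each left out alone. These counts account for the members and support nothing further, because the genes were chosen on this comparison. The number called depended on the tool: DESeq2 called all 10, and edgeR without the robust fit called *S100a8* and *Pglyrp1*. Over all genes DESeq2 called 177 lower and 254 higher, and edgeR without the robust fit called 94 lower and 145 higher. No gene of the 10 was called without CON 1 and CON 3, where edgeR called 69 genes in all and 3479 had an unadjusted p under 0.05.

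Levels of different genes were compared per kilobase of exon. In cKO, mean CPM per kilobase was highest for *S100a9* (3.04), *S100a8* (1.73) and *Pglyrp1* (1.56), and lowest for *Mpo* (0.0122). In CON, it was highest for *S100a9* (36.1), *S100a8* (26.0) and *Stfa1* (12.7), and again lowest for *Mpo* (0.453). *Stfa1*, *Stfa2l1* and *Stfa2* lay close together in CON (12.7, 11.8 and 11.1), and their order was not tested. *Retnlg* was ninth among the 10 in cKO (0.212) and sixth in CON (8.13).

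Other genes of the neutrophil lineage were grouped by granule type and role, 54 genes in 6 lists drawn up with earlier results of these data known. Of these, 32 were tested, 2 were called lower in cKO (*Mmp9* and *Ltb4r1*) and none higher, beside 0.518% and 0.891% of all genes. Their median log2 fold change was -0.38 over the 32 tested and -0.72 over all 54, beside -0.00047 over all genes tested. Without CON 1 and CON 3 these medians were -0.22 over those tested in that fit and -0.27 over those of the 54 with a count left. *Mrgpra2a* and *Mrgpra2b* had counts only in CON 1 or CON 3 and dropped out. With all libraries 26 of the 32 values were below 0. *Mmp9*, the gelatinase that gives its granules their name, fell to 1.45, 1.99, 2.68 and 3.18 CPM in cKO, against 17.3, 5.59, 17.5 and 4.12 CPM in CON, a difference of -2.27 on the log2 scale (SE 0.52, adjusted p = 0.0389 in edgeR). Its groups did not overlap and CON 1 and CON 3 were again highest. The call was lost in 9 of 18 alternatives, among them the fits without cKO 1, cKO 2, cKO 3, CON 2 or CON 3 (adjusted p from 0.0474 to 0.115 over all fits without 1 library), and without CON 1 and CON 3 the log2 fold change was -1.09 (adjusted p = 0.114). *Ltb4r1*, listed with the specific granule genes although it encodes a leukotriene receptor of the cell surface, had 0.562, 0.436, 0.475 and 0.484 CPM in cKO, against 1.25, 0.774, 1.23 and 1.09 CPM in CON. Its log2 fold change was -1.11 (SE 0.27, adjusted p = 0.0432), and the call was kept in 7 of 18 alternatives and lost in each of the 8 fits without 1 library (adjusted p from 0.0584 to 0.131).

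**Figure D4:**
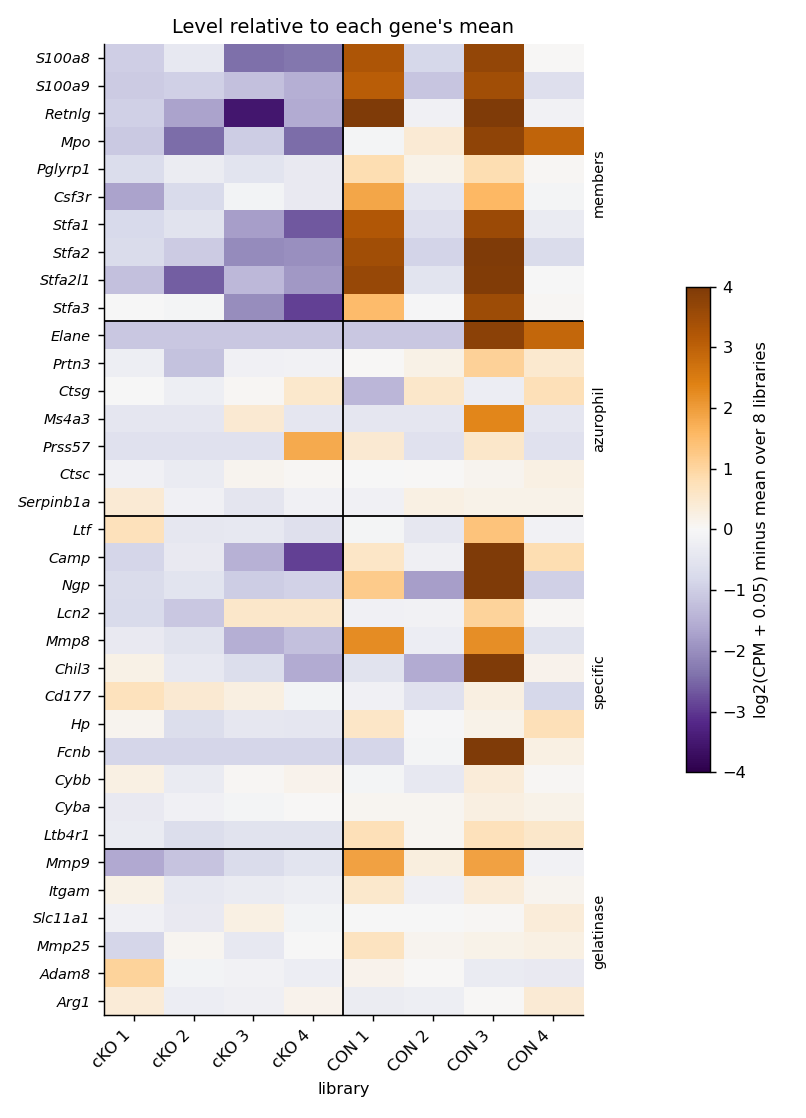
Level of the 10 genes and of every listed azurophil, specific and gelatinase granule gene in each library, as log2(CPM + 0.05) minus the mean of the gene over the 8 libraries, with cKO in the left and CON in the right columns; colours stop at 4 in each direction. CON 3 is high for *Camp*, *Ngp*, *Chil3* and *Fcnb*, CON 3 and CON 4 for *Mpo* and *Elane*, and CON 1 and CON 3 for *Mmp8* and *Mmp9*.

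The genes of each granule type did not all share 1 pattern. *Elane*, the elastase of azurophil granules, had no count in any cKO library nor in CON 1 and CON 2, and 25 and 13 counts in CON 3 and CON 4. The libraries high for *Mpo* were thus also the only libraries with *Elane*. Summed over libraries, *Elane* was at least 11.8-fold lower in cKO, against a floor of 3 counts over the group (counting error only). This bound leaves out the spread among the CON libraries. The azurophil protease *Prtn3* had 0.498 to 1.11 CPM in cKO and 1.25 to 2.63 CPM in CON, a log2 fold change of -0.88 (SE 0.33) that did not pass (adjusted p = 0.112). *Ctsc*, which activates the granule proteases, and the inhibitor *Serpinb1a* had values of -0.17 (adjusted p = 0.267) and -0.18 (adjusted p = 0.551). The azurophil cathepsin G gene, *Ctsg*, had 1 to 2 counts in cKO and 0 to 4 in CON, with no library apart. Among specific granule genes, the cathelicidin gene *Camp* had 4, 4, 2 and 0 counts in cKO, against 10, 8, 142 and 11 in CON, and *Ngp* had 12, 9, 9 and 6 counts in cKO, against 38, 6, 389 and 7 in CON. *Chil3* had 53 and *Fcnb* 27 counts in CON 3, with at most 3 and 1 in any other library. These 4 genes, like *Stfa3*, were highest in CON 3 by a wide margin. *Mmp8*, the neutrophil collagenase, had 0.388 to 0.924 CPM in cKO, against 5.85, 0.985, 5.66 and 0.801 CPM in CON, following the calgranulins (log2 fold change -2.31, SE 0.72, adjusted p = 0.0764). The lactoferrin gene *Ltf* and *Lcn2*, which many epithelia also express, reached 15.0 and 10.99 CPM in cKO and 22.9 and 15.6 CPM in CON and did not pass (adjusted p = 0.599 and 0.672). *Cd177* of the same list, a surface protein of neutrophils, went the other way, with 6.36 to 11.1 CPM in cKO, against 3.83 to 8.23 CPM in CON (log2 fold change 0.65, SE 0.25, adjusted p = 0.122, and 1.06 without CON 1 and CON 3).

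Of 16 neutrophil surface receptors 6 were tested and none was called, with 4 at an unadjusted p under 0.05 in edgeR, 6 of the list called lower by DESeq2 and 0 by limma-voom. The chemokine receptor *Cxcr2* had 3, 9, 11 and 4 counts in cKO, against 81, 9, 47 and 7 counts in CON. The integrin chain *Itgb2* (-0.72, adjusted p = 0.0553), *Bst1* (-1.03, adjusted p = 0.0642) and the selectin ligand *Selplg* (-0.72, adjusted p = 0.0849) did not pass. *Ly6g*, the surface marker most used to define mouse neutrophils, was nearly absent, with 2, 1, 4 and 1 counts in cKO, against 7, 9, 11 and 1 counts in CON. Of 5 granulocyte transcription factors 4 were tested and none was called (0 at an unadjusted p under 0.05 in edgeR, and 0 called by DESeq2 or limma-voom), with log2 fold changes of -0.48 for *Cebpa*, -0.22 for *Spi1*, 0.22 for *Gfi1* and 0.02 for *Cebpd*, the last of which was -0.0049 with upper quartile scaling. *Cebpe*, too scarce to be tested, reached 23 counts in CON 3, against 8, 2 and 3 in CON 1, CON 2 and CON 4. Its counts in cKO 1 to cKO 4 were 3, 4, 10 and 5. CON 3 was thus its top library, as for *Camp* and *Ngp*, but its groups overlapped (log2 fold change -0.74, SE 0.79). Among other late genes, *Padi4* (-0.93, adjusted p = 0.0935), *Ncf1* (-0.49, adjusted p = 0.102), *Asprv1* (-1.16, adjusted p = 0.14) and *Ncf4* (-0.63, adjusted p = 0.269) did not pass (3 of the 5 tested at an unadjusted p under 0.05 in edgeR, 1 called by DESeq2 and 0 by limma-voom).

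Relatives of the 10 genes by family were also listed, 43 genes in the table, of which 20 were tested. *S100a14*, an S100 gene of epithelia, was called lower, with 7.07, 6.54, 5.05 and 5.53 CPM in cKO, against 8.83, 7.98, 10.7 and 9.39 CPM in CON (log2 fold change -0.60, SE 0.14, adjusted p = 0.0400 in edgeR, and from 0.0289 to 0.126 without 1 library, with the call kept only without cKO 1 or CON 1). EdgeR called no other relative, while DESeq2 also called *Csta2*, *Cstdc4* and *Cstdc5* lower and limma-voom called 0. Short of the fold threshold in edgeR were *Cstb*, the gene of the ubiquitous stefin B (-0.30, adjusted p = 0.0384), *S100a6* (-0.36, adjusted p = 0.0329), *S100a16* (-0.30, adjusted p = 0.0373) and *S100a11* (-0.20, adjusted p = 0.0465). *Cst3* had -0.18 (adjusted p = 0.189). Values of *Csf2rb*, *Csf2ra*, *Csf2rb2* and *Csf1r*, receptors of related growth factors, were -0.30, 0.19, -0.42 and 0.12 (adjusted p from 0.151 to 0.536). *Retn*, the resistin gene, had 1, 4, 9 and 0 counts in cKO, against 4, 1, 4 and 53 in CON. Its high library was thus CON 4, where *Retnlg* had 8 counts. *Retnla* of the same family had 3, 0, 0 and 3 counts in cKO, against 5, 1, 2 and 0 in CON. *Epx*, the eosinophil peroxidase related to *Mpo*, was at 0.138 to 0.216 CPM in cKO and 0.0572 to 0.314 CPM in CON.

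As a sum, markers of red blood cells and their precursors were highest in the same libraries. The 13 red blood cell lineage genes in the table summed to 106, 117, 71.2 and 68.1 CPM in cKO, against 244, 57.3, 154 and 73.7 CPM in CON, so that CON 1 and CON 3 were also the highest here, with CON 1 above CON 3. None of the 9 tested was called (2 at an unadjusted p under 0.05 in edgeR, 3 called lower by DESeq2 and 0 by limma-voom). *Slc4a1*, the anion exchanger of red cells, had 3.73, 2.24, 1.51 and 2.35 CPM in cKO, against 61.7, 1.16, 36.6 and 1.66 CPM in CON (log2 fold change -3.33, SE 1.29, adjusted p = 0.142, and 0.82 without CON 1 and CON 3). *Ermap* had -2.76 (adjusted p = 0.0652), *Klf1* -1.75 (adjusted p = 0.184) and *Epb42* -1.63 (adjusted p = 0.308). Of the 9 tested, 8 had a log2 fold change below 0, with a median of -0.85 over the 9. *Tfrc* went the other way (0.33, adjusted p = 0.396 in edgeR). It had 59.4, 77.9, 38.3 and 38.6 CPM in cKO, against 54.4, 33.5, 38.1 and 44.2 CPM in CON. *Tfrc* thus made up a large part of the sums in cKO, CON 2 and CON 4. No marker of the list was at 0 in all libraries. The part of blood cells retained in the dissected ovary in the values of the 10 genes was not tested.

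In none of the other 11 marker lists were CON 1 and CON 3 the highest pair. Macrophage markers (10 genes) summed to 335 to 422 CPM in cKO and 342 to 434 CPM in CON, monocyte markers (7) to 256 to 342 CPM in cKO and 291 to 357 CPM in CON, and mast cell and basophil markers (8) to 149 to 188 CPM in cKO and 148 to 215 CPM in CON. Eosinophil markers (9) were near 0, at 0.691 to 1.25 CPM in cKO and 0.836 to 1.75 CPM in CON, and *Prg3* and *Ear6* had no count. Platelet and megakaryocyte markers (9) summed to 23.3 to 31.7 CPM in cKO and 24.7 to 32.6 CPM in CON, with *Gp6* at 0 in all libraries. B cell markers (9) summed to 23.6 to 38.4 CPM in cKO and 34.9 to 46.6 CPM in CON, and T and NK cell markers (8) to 6.65 to 7.79 CPM in cKO and 7.11 to 9.10 CPM in CON. Squamous epithelium, which also makes calgranulins and stefin A, was represented by 11 markers that summed to 65.7 to 86.8 CPM in cKO and 66.0 to 72.2 CPM in CON, and *Krt13* of this list was called lower (log2 fold change -0.89, SE 0.23, adjusted p = 0.0475, and above 0.05 without any 1 library). Endothelial markers (8) summed to 517 to 676 CPM in cKO and 647 to 727 CPM in CON. The other calls among markers were *Nr5a1* (0.60, adjusted p = 0.0231), *Nr5a2* and *Ddx4* (0.62, adjusted p = 0.0326), all higher in cKO.

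**Figure D5:**
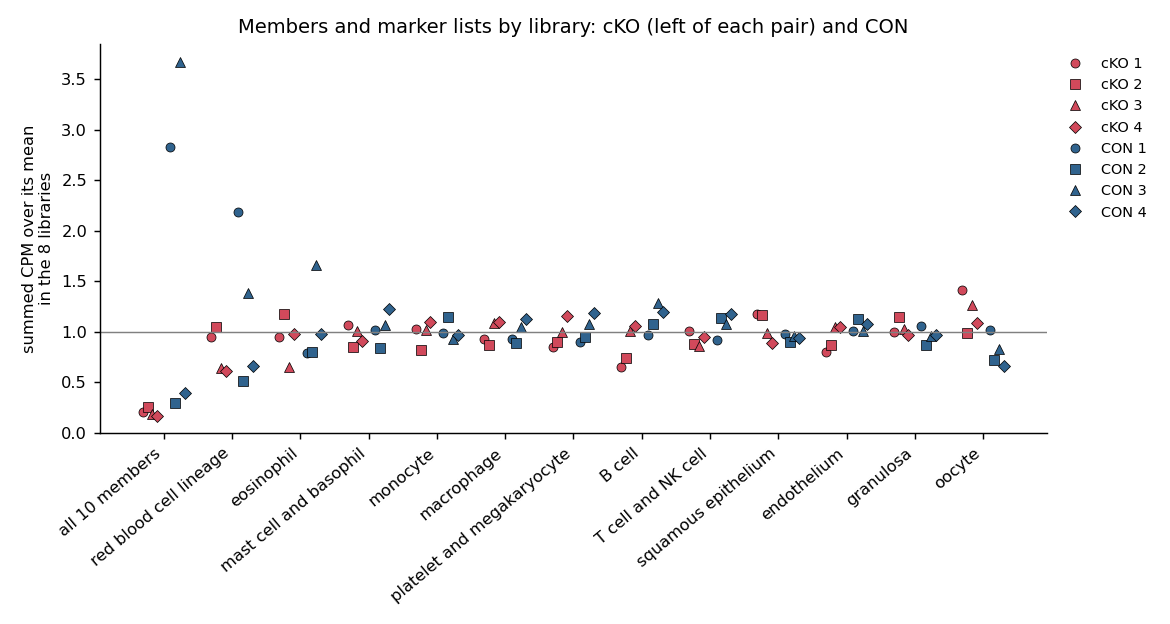
Summed CPM of the 10 genes and of each marker list in each library, divided by the mean of that sum over the 8 libraries, with cKO (red) left of CON (blue). CON 1 and CON 3 are the highest for the 10 genes and for the red blood cell lineage, and lie among the other libraries for macrophage, monocyte, endothelial and granulosa markers.

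The 10 tested genes outside the members whose log2 CPM followed the members' mean standardized level most closely had Pearson r between 0.939 and 0.965 over the 8 libraries. In order they were *Ctse*, *Mmp8*, *Cstdc5*, *Eif1*, *Arhgap9*, *Tlr12*, *Cd79b*, *Nfe2*, *Cytip* and *Efcab11*. The points share their libraries and depth, CON 1 and CON 3 set most of the range, and the values only describe the pattern. *Ctse*, the gene of cathepsin E, an aspartic protease, had 2.29, 2.18, 2.72 and 1.59 CPM in cKO, against 13.4, 2.46, 12.3 and 2.92 CPM in CON. *Nfe2*, a transcription factor of red cell and megakaryocyte precursors, had 0.723, 0.997, 0.777 and 0.622 CPM in cKO, against 4.44, 0.668, 3.15 and 1.09 CPM in CON. *Cd79b*, a chain of the B cell receptor, had 1.45 to 2.12 CPM in cKO, against 3.76, 1.97, 4.96 and 3.32 CPM in CON. *Eif1* and *Efcab11* had a like order of libraries with a far smaller range, with 325 to 329 CPM in cKO against 332 to 353 CPM in CON for *Eif1*. None of these 10 was called by edgeR or limma-voom, and DESeq2 called 5 lower (*Ctse*, *Mmp8*, *Cstdc5*, *Cd79b* and *Nfe2*).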

How the data were processed

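RNA of whole PND4 ovaries was sequenced in 8 libraries (4 cKO, 4 CON). The authors removed reads of low quality, aligned paired 100-base reads of a stranded library to GRCm38 with STAR and deposited counts per gene from featureCounts (versions, strand and multimapping settings are not given in the sources used here). Deposited columns with the authors' own DESeq2 comparison were not used. Gene IDs were joined to RefSeq symbols (24755 of 24823). The main test was the robust quasi-likelihood F test of edgeR 4.0.16 in R 4.3.3, after TMM scaling and filterByExpr, with Benjamini-Hochberg adjustment over all genes tested (threshold 0.05, fold change 1.5 or more). Log2 fold changes of the 10 genes come from the same fit without a filter beyond 1 count in total. Each SE was derived from the test, as the size of the log2 fold change over the square root of its F value. Scripts were tested on simulated data. The members and all lists were chosen with earlier results of these data known. Named were all members, in each neutrophil or family list the called genes or otherwise up to 4 tested genes with the smallest p, and the 10 genes of closest pattern over log2 CPM (prior count 2). Of marker lists, called genes were named and, for the red cell list, the 4 with the smallest p; this is narrower than the rule as first set, and 1 gene is not reported here. Further genes below the count filter, those named for their cluster or granule, and *S100a6*, *S100a11*, *S100a16* and *Tfrc* were chosen after their values were seen. Alternatives used RLE, upper quartile or library-size scaling, no filter, a mean of at least 10 counts, DESeq2 1.42.0, limma-voom (limma 3.58.1), no robust fit, and fewer libraries. Each library was taken as 1 independent sample. Promoter and coding sequences were read with Biopython 1.88.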

Additional observations from a re-analysis of the deposited data

Results flagged for a closer look

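Each group of 4 libraries was searched for a library that lies far from the other 3, over the 10 genes, the 6 neutrophil lists and the 12 marker lists, 56 groups of values in all. Chance alone sets apart about 1 in 20 such groups, and 2 were set apart here. The summed level of specific granule genes was 88.0 CPM in cKO 2, below the 101 to 102 CPM of the other cKO libraries. The summed level of gelatinase granule genes was 41.4 CPM in cKO 1, above the 26.4 to 28.8 CPM of the other cKO libraries. None of the 10 genes had a single library set apart in this way. The search cannot show 2 libraries that are high together, as CON 1 and CON 3 were for most of these genes.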

How the results depend on the processing

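All 180 alternative values of the 10 genes (18 settings each) were below 0. Without CON 1 and CON 3 the median of the members was -0.832, beside -3.83. This median was -2.72 with limma-voom and -4.69 without cKO 1 and cKO 2, and without any single library it lay between -4.22 and -3.15. The number of members called was 10 with DESeq2, 2 without the robust fit, 0 without CON 1 and CON 3 and 0 without cKO 1 and cKO 2, beside 1, and 0 to 1 without a single library. The number of all genes called was 431 with DESeq2 and 69 without CON 1 and CON 3, beside 215, and 0 to 407 without a single library (0 without CON 2 and 0 without CON 3, where 3314 and 3259 genes had an unadjusted p under 0.05 in edgeR). Other neutrophil genes called were 0 with no count filter, 11 with DESeq2, 1 with limma-voom, 0 without CON 1 and CON 3 and 1 without cKO 1 and cKO 2, beside 2, and 0 to 2 without a single library. Their median was -0.724 with no count filter and -0.725 with DESeq2, where more genes enter, beside -0.383, and -0.611 to -0.258 without a single library. Related family genes called were 0 with library size only, 4 with DESeq2, 0 with limma-voom and 0 without CON 1 and CON 3, beside 1, and 0 to 1 without a single library. Marker genes called were 12 with DESeq2 and 7 with limma-voom, beside 4, and 0 to 9 without a single library. Among 42 other named genes, the sign turned for *Slc4a1* (0.821), *Klf1* (0.466) and *Epb42* (2.09) without CON 1 and CON 3, for *Gfi1* (-0.0851) without cKO 1 and cKO 2, and for *Cebpd* with upper quartile scaling (-0.00491) and without cKO 1 (-0.0252), cKO 3 (-0.0422) or CON 2 (-0.0407), within -0.0422 to 0.122 without a single library. The cause of these changes was not tested. The share of calls higher in cKO was 63.3%, with 70.3% at library size only and 54.5% at upper quartile scaling. The balance turned with the libraries. Leaving out cKO 1 and cKO 2 gave 61 higher and 157 lower genes, leaving out cKO 1 alone gave 81 higher and 88 lower, cKO 3 gave 21 higher and 30 lower, and CON 4 gave 16 higher and 31 lower. Leaving out CON 1 gave 322 higher and 85 lower genes, and CON 1 with CON 3 gave 55 higher and 14 lower. No paired analysis was possible because the sample titles of the genotypes share no replicate number, and the column numbers 1 to 4 used here match no title and pair nothing. Counts of 10 or fewer in cKO limit *Retnlg*, *Mpo*, *Stfa2*, *Stfa2l1* and *Stfa3*, and n = 4 per genotype with high values in a few CON libraries limits all of them.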
